A study of Mus musculus with 2 samples.

Results

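The Notch genes examined here were 3 receptor genes (Notch1, Notch2 and Notch3), 3 ligand genes (Dll1, Jag1 and Jag2), 3 target genes (Hes1, Hey1 and Nrarp) and Lfng, which encodes an enzyme that modifies the receptors. They were taken by name, and all 10 were found among the 14860 genes with a probe set of their own on the arrays. Expression was measured on 2 microarrays of total RNA from cultured mouse tracheal epithelial cells, 1 from wild-type cells (Gprc5a+/+) and 1 from cells of Gprc5a knockout mice (Gprc5a-/-). The donor mice of both genotypes were given as 3 weeks old on a mixed C57 BL/6 and 129sv background, and both cultures were untreated and in exponential growth in K-SFM, a serum-free keratinocyte medium, to which 50 μg/ml of bovine pituitary extract and 5 ng/ml of epidermal growth factor had been added. The labels do not give the number of mice behind each culture or the part of Gprc5a that was deleted. Since each genotype had 1 array, no test or error could be had, and each difference describes these 2 arrays and includes whatever separated them besides genotype.

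Notch receptors are membrane proteins that are cleaved when a Delta or Jagged ligand on a neighbouring cell binds them. The freed intracellular part enters the nucleus, joins the DNA-binding protein RBPJ and a Mastermind coactivator, and switches on target genes, among them repressors of the HES and HEY families. In the airway epithelium the pathway is known for directing progenitor cells toward the secretory fate and away from the ciliated fate.

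The 250 bases before the annotated start are shown for the members with the highest differences, Notch1 and Dll1 (which has a pair of annotated starts), and for Nrarp and Lfng, which are known to be switched on by Notch in other tissues. They were read from the RefSeq promoter table of build GRCm38.p6, 5′ to 3′ on the gene's strand, and capitals mark TGGGAA, the core of the RBPJ site, on either strand, with the G before it where the longer GTGGGAA was matched. The windows lie at chr2:26503823-26504072 on the minus strand for Notch1, chr17:15375824-15376073 and chr17:15376933-15377182 on the minus strand for Dll1, chr2:25180508-25180757 on the plus strand for Nrarp and chr5:140607091-140607340 on the plus strand for Lfng.
Notch1: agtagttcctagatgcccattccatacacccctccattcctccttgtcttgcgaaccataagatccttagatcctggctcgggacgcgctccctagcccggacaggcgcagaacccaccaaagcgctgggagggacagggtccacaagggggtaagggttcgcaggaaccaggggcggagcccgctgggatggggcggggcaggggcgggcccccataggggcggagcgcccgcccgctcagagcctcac
Dll1, first window: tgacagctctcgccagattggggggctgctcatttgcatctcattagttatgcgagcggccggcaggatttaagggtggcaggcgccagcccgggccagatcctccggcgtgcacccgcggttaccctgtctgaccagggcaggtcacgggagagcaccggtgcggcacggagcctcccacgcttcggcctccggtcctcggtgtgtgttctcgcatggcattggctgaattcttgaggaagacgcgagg
Dll1, second window: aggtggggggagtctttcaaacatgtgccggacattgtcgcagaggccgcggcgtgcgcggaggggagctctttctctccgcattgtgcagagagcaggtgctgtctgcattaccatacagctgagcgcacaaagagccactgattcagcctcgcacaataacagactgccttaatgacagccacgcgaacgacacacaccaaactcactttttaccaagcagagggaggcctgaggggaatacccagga
Nrarp: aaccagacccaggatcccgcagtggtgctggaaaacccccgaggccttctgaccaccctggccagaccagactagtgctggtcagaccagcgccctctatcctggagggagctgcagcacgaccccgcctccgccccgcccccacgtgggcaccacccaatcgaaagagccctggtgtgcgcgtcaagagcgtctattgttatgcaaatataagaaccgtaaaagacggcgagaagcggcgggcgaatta
Lfng: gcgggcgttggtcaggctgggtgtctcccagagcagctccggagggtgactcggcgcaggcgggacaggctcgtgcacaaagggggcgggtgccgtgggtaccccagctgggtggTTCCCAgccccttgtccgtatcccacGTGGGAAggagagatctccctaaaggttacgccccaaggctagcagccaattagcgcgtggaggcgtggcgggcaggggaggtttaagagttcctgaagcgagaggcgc

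The RefSeq table held no promoter of Hes1 or Hey1, so these target genes were not searched. It held 9 promoters of the other 8 members, each with 250 bases before and 50 after the start. Of these 8 members, 1 held GTGGGAA on either strand, namely Lfng, against 7.25% of all 27025 genes in the table (6.38% of its 32851 promoters). The shorter TGGGAA, which is contained in GTGGGAA, occurred in the same single member and in 28.3% of all genes (25.6% of promoters). In Lfng the 2 matches to TGGGAA began 135 and 108 bases before the start, the first on the opposite strand and the second on the gene's strand within a GTGGGAA. A match is a description of the letters only, and the windows of Notch1, Dll1, Jag1, Jag2, Notch2, Notch3 and Nrarp contained none.

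Values below are the deposited log2 expression values. Differences are given as knockout minus wild type on that scale, and folds are their antilogs. A gene was counted as higher or lower at 2-fold or more when the higher of its 2 values exceeded 6.76, the median value of the probe sets that had a symbol. A level of 5.05, the 95th percentile of 800 olfactory and vomeronasal receptor genes, served to mark background. Levels of different genes were not set against each other, because probe sets differ in their response. The targeted gene Gprc5a was at 9.49 on the wild-type array and 4.05 on the knockout array. The median difference was -0.03 over all genes and 0.02 over the 7943 genes above the level filter.

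All 6 receptor and ligand genes had a higher value on the knockout array, by amounts from 1.01-fold to 2.39-fold. Among the 10 members, 7 had a higher and 3 a lower value. The level filter was passed by 9, of which 7 had a higher value, against 51.8% higher and 48.2% lower among all genes that passed. Of these 9, 2 were at least 2-fold higher and none was at least 2-fold lower. By the same rule 4.62% of the 7943 genes above the filter were at least 2-fold higher and 2.97% were at least 2-fold lower. At a threshold of 1.5-fold the members' counts were the same, 2 higher and none lower, against 11% and 7.7% of all genes above the filter, and Lfng at 1.47-fold lower was the nearest below that threshold. The members were chosen with these differences known, so the count is a description. The median difference of the 10 members was 0.25, and without Notch1 and Dll1 the median of the other 8 was 0.11.

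**Figure D1:**
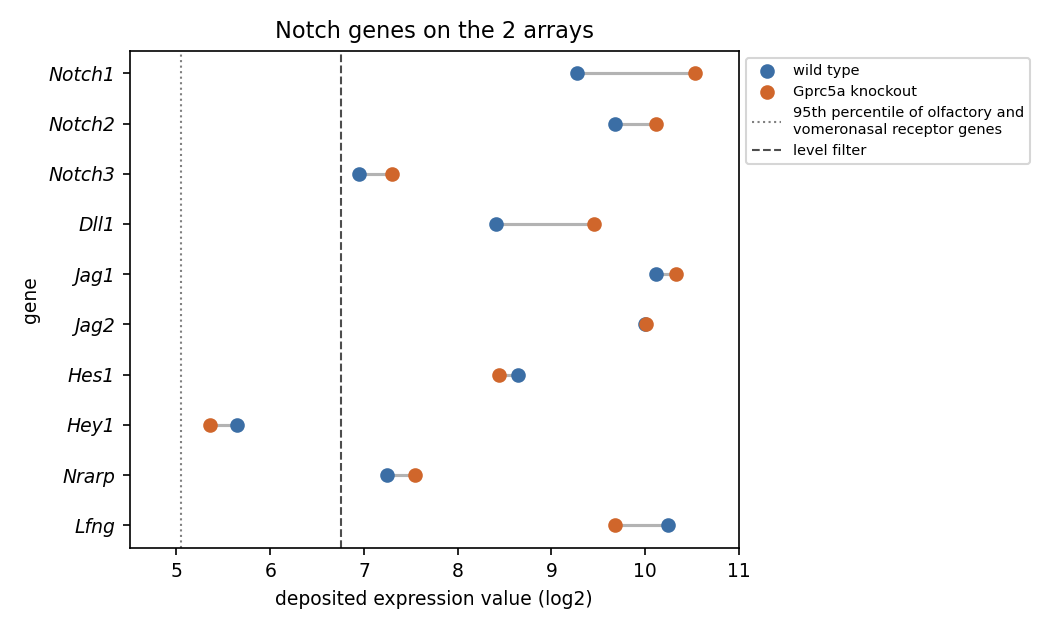
Deposited log2 expression values of the 10 Notch genes on the wild-type array (blue) and the Gprc5a knockout array (orange), joined by a line for each gene, 1 array per genotype and no error bars. Notch1 (9.27 and 10.53) and Dll1 (8.41 and 9.46) have the widest gaps, and Hey1 (5.65 and 5.36) is the single gene left of the level filter at 6.76.

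The receptor gene Notch1 had the largest difference of the 10 genes. Its value was 9.27 on the wild-type array and 10.53 on the knockout array, a difference of 1.26 or 2.39-fold. Of all genes passing the level filter, 250 (3.15%) were as far or farther in that direction. Of the 1562 genes above the filter whose mean level lay within 0.5 of that of Notch1, the central 95% had differences from -0.77 to 0.89, and Notch1 lay above this range. The other receptor genes differed by less. Notch2, a close paralog of Notch1, was at 9.68 on the wild-type array and 10.12 on the knockout array, 1.35-fold higher. Notch3, a receptor known in vascular mural cells and also in airway basal cells, was at 6.95 and 7.30, 1.27-fold higher. Both differences lay inside the central 95% of genes of like level, which ran from -0.77 to 0.89 for Notch2 and from -1.61 to 1.86 for Notch3.

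Among the ligand genes, Dll1 had a 2-fold difference and both Jagged genes did not. Dll1, the Delta-like ligand 1, was at 8.41 on the wild-type array and 9.46 on the knockout array, a difference of 1.05 or 2.07-fold. It stood close to the 2-fold threshold. Its difference of 1.047 lay just inside the central 95% of 2186 genes of like level, from -0.885 to 1.053. In all, 4.27% of the genes above the filter were as far or farther in that direction. Jag1, the ligand mutated in Alagille syndrome in humans, was at 10.12 and 10.33, 1.15-fold higher on the knockout array. Jag2 was at 9.999 and 10.009, a difference of 0.01. A further probe set listed for Jag2 together with Pgp, and left out for that reason, had values of 9.91 and 9.79, a difference of -0.12.

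The target genes did not share a direction, and none differed by 2-fold. Hes1, a basic helix-loop-helix repressor and a widely used readout of Notch activity, was at 8.64 on the wild-type array and 8.44 on the knockout array, a difference of -0.21. Nrarp, a small ankyrin repeat protein that limits Notch signalling, was at 7.24 and 7.54, 1.23-fold higher on the knockout array. Hey1, a HES-related repressor, was at 5.65 and 5.36, under the level filter on both arrays and a little above the background level of 5.05, with a difference of -0.29. The 3 target genes had a median difference of -0.21, which turned to 0.04 over the 2 above the filter. With Lfng counted among the targets, the median was -0.25 over 4 genes and -0.21 over the 3 above the filter. The 6 receptor and ligand genes, all above the filter, had a median difference of 0.39. Each group holds few genes, and the difference between the groups was not tested.

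Lfng, lunatic fringe, which adds a sugar to the receptors and is known to favour their response to Delta over Jagged ligands, was the member with the lowest difference. It was at 10.24 on the wild-type array and 9.68 on the knockout array, a difference of -0.56 or 1.47-fold. Among the genes above the filter, 8.28% were as far or farther in that direction. The difference lay inside the central 95% of genes of like level, from -0.73 to 0.90.

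**Figure D2:**
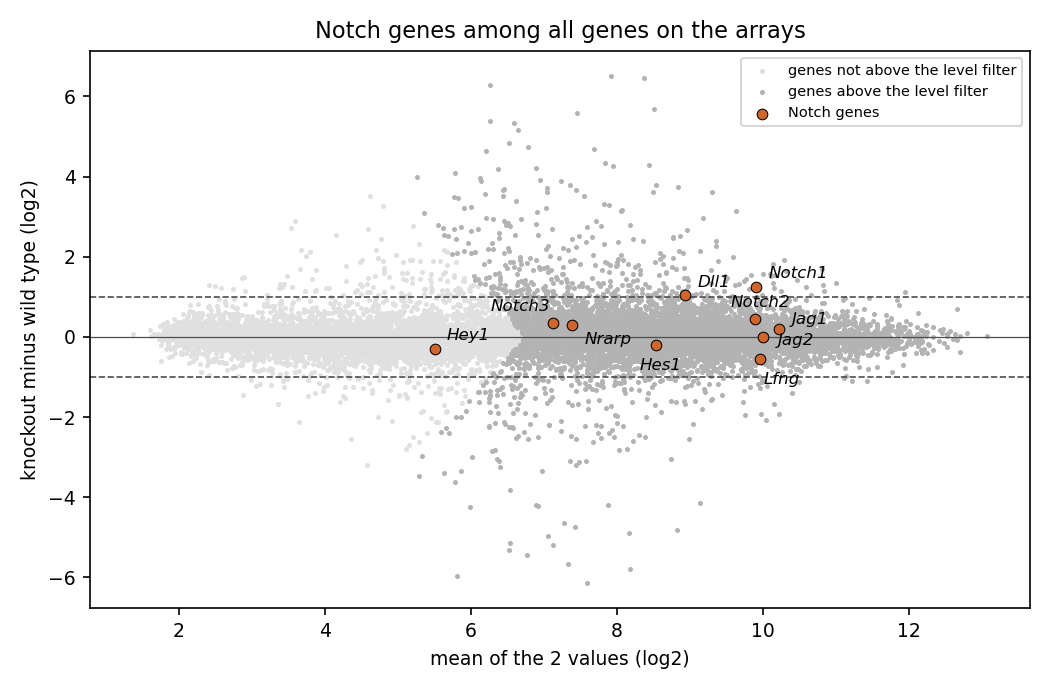
Difference between the knockout and wild-type arrays (log2) against the mean of the 2 values (log2) for all 14860 genes in grey, with the 10 Notch genes in orange and dashed lines at 2-fold. Notch1 at 1.26 and Dll1 at 1.05 lie above the upper line, and the other 8 genes lie between the lines, from -0.56 for Lfng to 0.44 for Notch2.

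The genes beside the members on the chromosome, the closest 2 on each side among genes on the arrays, were looked at after the members' values were known. Of these 40 neighbours, 27 were above the level filter. Of these 27, 1 was at least 2-fold higher and none at least 2-fold lower, against 4.62% and 2.97% of all genes above the filter. The neighbours of Notch1 that passed the filter, Inpp5e, Sec16a and Agpat2, differed by 0.26, 0.20 and 0.003. Egfl7, which lies between Notch1 and Agpat2 and was under the filter, differed by -0.33. Beside Dll1, Phf10 differed by -0.52, Fam120b by 0.29 and Psmb1 by 0.55. The neighbour above the filter at 2-fold was Mrps28, a mitochondrial ribosomal protein gene beside Hey1, at 6.81 on the wild-type array and 8.03 on the knockout array. On the other side of Hey1, the cytokine gene Il7 was 2.25-fold higher at 5.19 and 6.37, under the filter on both arrays.

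The rest of the pathway was described with 7 further lists. Of their 76 genes, 59 had a probe set of their own on the arrays and 43 were above the level filter. Of these 43, 6 were at least 2-fold higher and 3 at least 2-fold lower on the knockout array, against 4.62% and 2.97% of all genes above the filter. Their median difference was -0.02, against 0.02 for all genes above the filter, and 21 had a higher and 22 a lower value. The differences of at least 2-fold lay among corepressors, ubiquitin ligases, HES-related repressors and genes reported as Notch targets in other tissues. None lay among the further receptors and ligands, the glycosyltransferases or the proteases.

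Among further receptor and ligand genes, 1 of 4 on the arrays was above the filter. This was Dlk2, a Delta-like protein without the usual ligand domain, at 6.93 on the wild-type array and 7.30 on the knockout array. Dll4, the Delta-like ligand known from blood vessels, was below background on both arrays, at 5.00 and 5.00, and Dll3 was at 5.24 and 5.16. Among the glycosyltransferases that act on the receptors' extracellular repeats, 4 of 5 were above the filter and none was at 2-fold. Eogt was 1.60-fold, Pofut1, which adds the fucose that fringe enzymes extend, 1.35-fold and Poglut1 1.29-fold higher. Rfng, radical fringe, differed by -0.19, and Mfng, manic fringe, at 5.32 and 5.12, was under the filter. All 4 measured protease genes were above the filter. Ncstn and Psen2, subunits of the gamma-secretase that releases the intracellular part, were each 1.27-fold higher, and Adam10, which makes the cut before it, differed by -0.12.

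In the nuclear list, 9 of 11 genes on the arrays were above the filter. Of these 9, 1 was at least 2-fold higher and 2 at least 2-fold lower, against 4.62% and 2.97% of all genes above the filter. Those with a 2-fold difference all belonged to the Groucho-related corepressors that HES proteins recruit. Tle1 was at 7.74 on the wild-type array and 8.78 on the knockout array, 2.05-fold higher. Tle3 was at 9.62 and 8.41, 2.31-fold lower on the knockout array. Tle4 was at 6.87 and 4.88, a difference of -1.99, and it passed the filter by its wild-type value only. With its knockout value raised to the background level, Tle4 differed by -1.81. These proteins also act with other transcription factors, so they are not particular to Notch. Rbpj itself, the DNA-binding partner of the cleaved receptor, was at 5.96 and 5.97, under the filter on both arrays, and the coactivator gene Maml1 was at 7.88 and 7.91.

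Of 14 genes of endocytosis, ubiquitination and turnover on the arrays, 12 were above the filter. Of these 12, 1 was at least 2-fold higher and 1 at least 2-fold lower, against 4.62% and 2.97% of all genes above the filter. Dtx4, a Deltex ubiquitin ligase, was at 7.58 on the wild-type array and 8.99 on the knockout array, 2.67-fold higher. Neurl1b, a Neuralized ubiquitin ligase of the kind that promotes endocytosis of ligands, was at 8.68 and 7.67, and with a difference of -1.002 it stood at the threshold itself. Mib2, a Mind bomb ligase with the same role, differed by -0.47 and passed the filter by its wild-type value only. Mib1 differed by -0.15 and Numb, an inhibitor of the receptor, by -0.12.

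Among 8 HES and HEY genes and their relatives on the arrays, 4 were above the filter. Of these 4, 2 were at least 2-fold higher and none at least 2-fold lower, against 4.62% and 2.97% of all genes above the filter. Over the 8 genes, 2 had a higher and 6 a lower value, with a median difference of -0.18. Bhlhe41, a clock-linked repressor related to the HES proteins, was at 6.83 on the wild-type array and 9.21 on the knockout array, 5.21-fold higher. Hes6, a family member known to oppose Hes1, was at 8.73 and 9.90, 2.24-fold higher. Bhlhe40, the paralog of Bhlhe41, differed by -0.58, and Hes7 by -0.35. Hes5, Heyl and Hey2, which are Notch targets in other tissues, were under the filter. Hes5 was at 6.26 and 6.08, Heyl at 5.02 and 4.98 and Hey2 at 4.04 and 3.86, the last 2 below background on both arrays.

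Of 13 genes reported as Notch targets in other tissues, 9 were above the filter. Of these 9, 2 were at least 2-fold higher and none at least 2-fold lower, against 4.62% and 2.97% of all genes above the filter. A higher value was seen in 6 and a lower one in 3 of the 9, with a median difference of 0.10. Cdkn1a, the cell cycle inhibitor p21 and also a p53 target, was at 9.34 on the wild-type array and 11.24 on the knockout array. Id1, an inhibitor of helix-loop-helix factors and also a BMP target, was at 5.82 and 6.89, and it passed the filter by its knockout value only, which favours a higher one. Cdkn1b, the inhibitor p27, differed by -0.50, Myc by 0.34 and Ccnd1, cyclin D1, by 0.24.

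**Figure D3:**
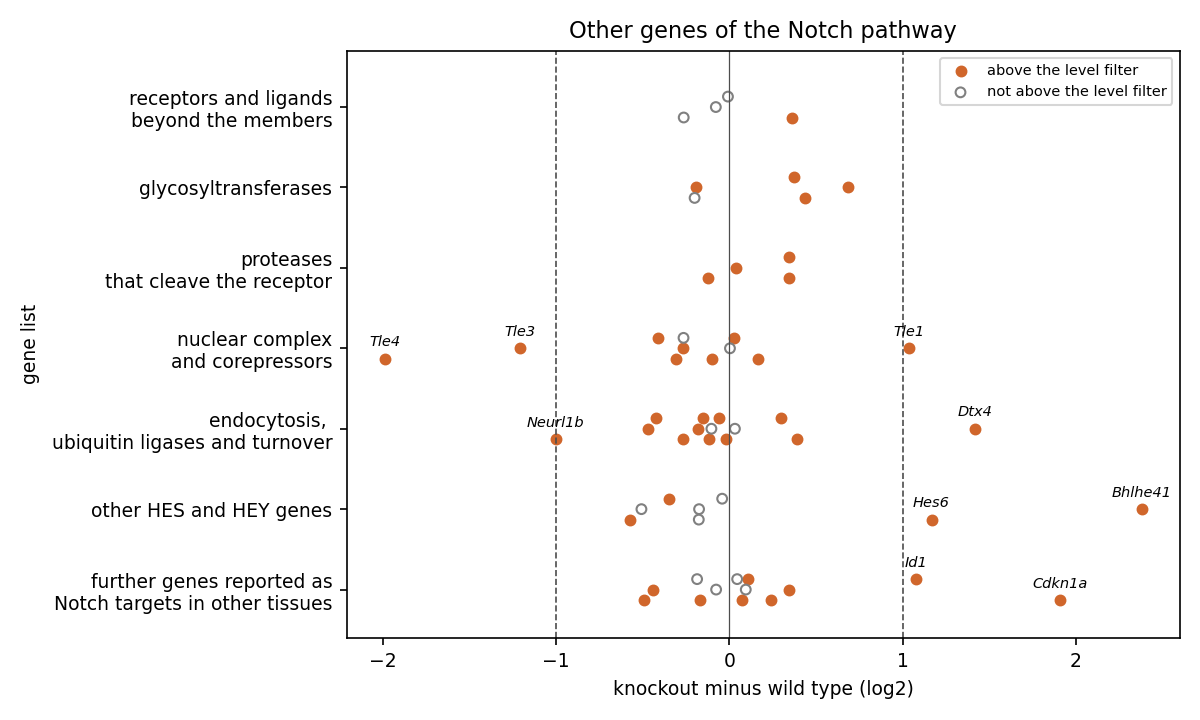
Difference between the knockout and wild-type arrays (log2) for 59 further genes of the Notch pathway in 7 lists, 1 point per gene, filled where the gene was above the level filter, with dashed lines at 2-fold. Bhlhe41 at 2.38, Cdkn1a at 1.91, Dtx4, Hes6, Id1 and Tle1 lie above 2-fold, and Tle4 at -1.99, Tle3 and Neurl1b lie below.

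The labelled cell type was checked with marker genes. Of 10 airway basal cell genes, 8 were above the filter, among them Krt5 at 12.71 and 12.62 and Trp63 at 10.95 and 10.76. Of these 8, 6 had a lower value on the knockout array, against 48.2% of all genes above the filter. At least 2-fold lower was 1 of the 8, against 2.97% of all genes above the filter. This was Pdpn, podoplanin, at 10.62 and 5.73, which passed the filter by its wild-type value only. Krt15, at 6.91 and 7.60, was 1.61-fold higher on the knockout array. Because Notch3 and Dll4 are also used by vessels, markers of those cells were read beside them. All 7 endothelial genes were under the filter on both arrays, with values from 2.83 to 5.06. Of 7 mural and smooth muscle genes, 6 were under it, including Pdgfrb at 4.74 and 4.61, which lay below background, and Acta2 was at 5.16 on the wild-type array and 7.93 on the knockout array. Acta2 passed the filter by its knockout value only. Of the other 6 genes, 5 lay below background on both arrays. A lower value on the knockout array was seen in 5 of these 6, against 8023 of all 14860 genes. The part of such cells in the value of Notch3 was not tested. Markers of the cell fates that Notch steers were mixed. Of 7 ciliated cell genes on the arrays, 5 were under the filter, 4 of them below background on both arrays. The 2 above the filter went in opposite directions. Foxj1, the regulator of ciliated cells, was at 6.22 and 8.97 and passed by its knockout value only, while Myb, which acts early in the making of multiciliated cells, was at 8.18 and 7.10. Of 7 club and secretory genes on the arrays, 3 were above the filter. All 3 had a higher value on the knockout array, against 51.8% of all genes above the filter. Over the 7 genes, 4 had a higher and 3 a lower value. Aldh1a1, a retinaldehyde dehydrogenase, was at 4.68 and 8.20, Cyp2f2, a club cell cytochrome P450, at 6.48 and 9.63, and Cbr2, a carbonyl reductase, at 10.90 and 11.42. Aldh1a1 and Cyp2f2 passed by their knockout values only, which favours higher ones. Scgb1a1, the defining club cell secretory gene, was at 2.35 and 2.30, below background on both arrays.

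**Figure D4:**
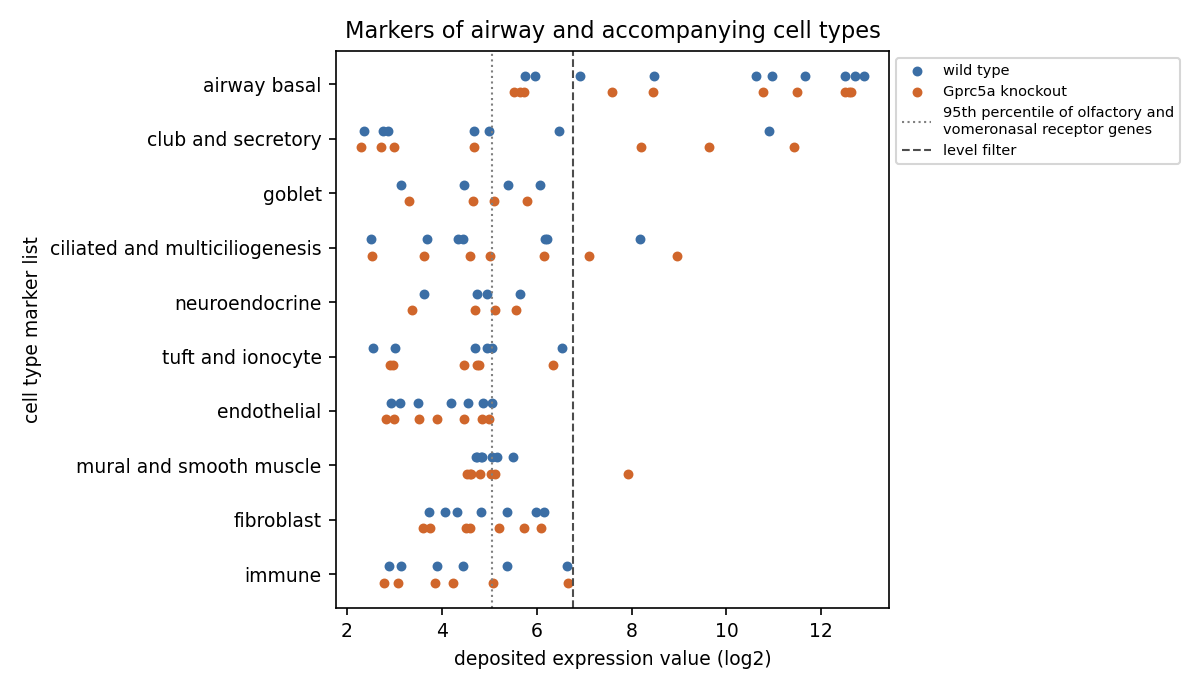
Deposited log2 expression values of 65 cell type marker genes in 10 lists on the wild-type array (blue) and the knockout array (orange), 1 point per gene and array, with dotted and dashed lines at the background level of 5.05 and the level filter of 6.76. Of the 10 basal genes 8 lie right of the filter on at least 1 array, all endothelial, fibroblast, immune, goblet, neuroendocrine, tuft and ionocyte genes lie left of the filter, and Acta2 is the single mural gene right of it.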

How the data were processed

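Total RNA (250 ng per sample) was labelled with biotin and hybridised to 2 arrays, per the labels' protocols. The authors' deposited values are on a log2 scale, and Affymetrix Expression Console and RMA are named, per the submitters' processing notes. Whether the arrays were normalized jointly, with which filters and on which genome build is not stated. Quantile normalization, part of RMA as commonly run, would hide a global change. The sorted columns differed by at most 0.17.

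Of 23332 probe sets, 14996 carried exactly 1 gene symbol, and 14941 of these were matched by Entrez ID to RefSeq (GRCm38.p6). For genes with several such probe sets the one with the highest mean was used, and each of the 10 members had 1. Differences, counts and medians were computed in Python 3.11.15 with pandas 2.3.3 and numpy 2.4.6, and the counting was tested on simulated data. The 2 arrays, 1 per genotype, limit the precision and allow no test.

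The members and lists were chosen with earlier results of these data known. Named were all members, Gprc5a, and from each list every gene above the filter at 2-fold or more and the 3 with the largest absolute differences above it. Rbpj, Maml1, Dll3, Dll4, Rfng, Mfng, Mib1, Numb, Hes5, Hes7, Heyl, Hey2, Myc, Ccnd1, the neighbours (Il7 among them) and the markers were named beyond this rule, after their values were seen. Alternatives were other level filters, a raised floor, 3 other scalings, other probe set rules and a threshold of 1.5-fold. Protein sequences were not used here.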

Additional observations from a re-analysis of the deposited data

How the results depend on the processing

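No paired analysis was possible because each genotype has 1 array. The counts of members at least 2-fold higher (2) and lower (0) stayed the same under all 9 alternatives, the threshold of 1.5-fold included. Of these, only the 3 other scalings and the threshold of 1.5-fold could have changed them. The difference of Notch1 ran from 1.25 to 1.28 and that of Dll1 from 1.004 to 1.07, the lowest with the columns quantile-normalized again. The members' median ran from 0.19 to 0.28, and no member changed sign. With the columns quantile-normalized again, Notch3 differed by 0.23 and Nrarp by 0.18. After a running median along the level was taken off, Nrarp differed by 0.19 and Hey1 by -0.18, so the small differences depend on the scaling. At 2-fold, the count of further pathway genes ran from 4 to 6 higher and from 2 to 3 lower, and at 1.5-fold it was 7 higher and 3 lower. With the shorter motif, the share of promoters with a match moved from 6.38% to 25.6% by construction. Each member had a single probe set, so the other probe set rules could not change a member's value. All values of the members, the lowest at 5.36, lay above the background level, so the raised floor could not either. Hey1, the single member under the filter, differed by -0.29, and Notch1 and Dll1 lay well above it on both arrays. Other level filters therefore could not change the members' counts. Without replicates no error can be set on any difference, and no detection calls were used.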
